A study of Mus musculus with 6 samples.

Results

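The genes described here encode the ligands and receptors of axon guidance. They are the semaphorins of classes 3 to 7 with the plexins and neuropilins, the ephrins with the Eph receptors, the Slit ligands with the Robo receptors, and the netrins with the Unc5 receptors. They were chosen by gene symbol alone, which gave 68 of the 24568 genes in the deposited matrix: 35 ligands (20 semaphorins, 8 ephrins, 4 netrins and 3 Slits) and 33 receptors (14 Eph receptors, 9 plexins, 4 Robo receptors, 4 Unc5 receptors and 2 neuropilins). The data are single-cell RNA sequencing of fetal small intestine from C57/BL6 mice that carry Pdgfra-H2BGFP, a nuclear green fluorescent protein reporting Pdgfra, the gene of a growth factor receptor of mesenchymal cells. There is no untreated or wild-type group, and every sample carries this reporter. The labels give 6 samples in 4 groups. Embryos of E15.5 and E16.5 gave 2 lanes of all live cells and 1 sample of enriched cells. A like trio came from embryos of E13.5, E14.5 and E18.5. For the enriched samples, cells were gated on high GFP, Epcam, CD31 or CD45, which mark PDGFRA-high mesenchyme, epithelium, endothelium and blood cells. Replicate embryos were pooled (4 at E13.5, 3 at E14.5 and 2 at each other age), and ages were pooled within a sample.

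All cells were deposited in 1 matrix. Their barcodes carry 6 suffixes, made of a digit from 1 to 3 and an ending, and no label ties a suffix to a sample. The suffixes are therefore used only as technical sets, called A1, A2 and A3 for the first ending and B1, B2 and B3 for the second. Set 3 was compared with sets 1 and 2 within each ending. With 1 pooled matrix there are no replicates, so no test was made, and every interval given is a 95% interval that covers counting error only. Age, embryo and sort cannot be told apart from the sets.

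Guidance ligands were named for steering growing axons, but they act in many tissues where cells must attract, repel or sort from each other. Class 3 semaphorins are secreted and bind neuropilins, which signal with plexins, while the other semaphorins here are mostly membrane proteins that bind plexins directly. Ephrins are tethered to the membrane and bind Eph receptor tyrosine kinases on neighbouring cells, and Slits and netrins are secreted ligands of the Robo and of the Unc5 receptors. In the fetal gut these families are known from the guidance of vagal axons, from the enteric nervous system, from blood vessels and from the mesenchyme.

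The promoters of 4 genes are shown because they belong to a ligand and a receptor that were higher in set 3 (Sema3c and Epha4) and to a ligand and a receptor that were lower (Sema3d and Ephb1). Each runs from 250 bases before to 50 bases after the gene's start in RefSeq (GRCm38.p6), 5′ to 3′ on the gene's strand. Capitals mark the GC box, GGGCGG or its reverse complement CCGCCC. The Sema3c promoter lies at chr5:17574566-17574865 on the plus strand, that of Epha4 at chr1:77515039-77515338 on the minus strand, that of Sema3d at chr5:12382916-12383215 on the plus strand and that of Ephb1 at chr9:102354644-102354943 on the minus strand.
Sema3c: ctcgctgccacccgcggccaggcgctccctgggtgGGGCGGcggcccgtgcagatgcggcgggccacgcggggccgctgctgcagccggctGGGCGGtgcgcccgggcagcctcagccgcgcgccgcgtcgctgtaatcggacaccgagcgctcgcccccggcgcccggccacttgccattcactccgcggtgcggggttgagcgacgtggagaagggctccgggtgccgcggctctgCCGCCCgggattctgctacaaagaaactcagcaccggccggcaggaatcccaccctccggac
Epha4: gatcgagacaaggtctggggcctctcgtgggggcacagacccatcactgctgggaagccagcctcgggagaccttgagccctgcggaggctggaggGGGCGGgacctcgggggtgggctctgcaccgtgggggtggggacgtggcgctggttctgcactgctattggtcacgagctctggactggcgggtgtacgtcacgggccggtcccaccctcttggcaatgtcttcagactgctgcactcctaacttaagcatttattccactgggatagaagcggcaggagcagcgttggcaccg
Sema3d: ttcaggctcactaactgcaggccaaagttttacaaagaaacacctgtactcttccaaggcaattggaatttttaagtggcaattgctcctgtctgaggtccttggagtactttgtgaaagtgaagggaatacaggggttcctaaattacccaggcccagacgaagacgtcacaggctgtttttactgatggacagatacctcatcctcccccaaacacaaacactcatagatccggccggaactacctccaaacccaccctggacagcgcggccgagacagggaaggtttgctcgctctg
Ephb1: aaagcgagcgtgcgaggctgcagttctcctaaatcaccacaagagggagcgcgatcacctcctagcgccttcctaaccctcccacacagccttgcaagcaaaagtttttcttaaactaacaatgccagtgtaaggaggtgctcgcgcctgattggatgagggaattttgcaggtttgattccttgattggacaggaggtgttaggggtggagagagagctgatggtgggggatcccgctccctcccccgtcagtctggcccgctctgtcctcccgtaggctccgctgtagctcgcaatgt

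The Sema3c window held 42 CpG dinucleotides and 3 GC boxes at a GC content of 75.67%, and the Epha4 window held 17 CpGs and 1 GC box. The windows of Sema3d, with 8 CpGs, and of Ephb1, with 14, held no GC box. RefSeq promoters were matched for 59 of the 68 genes, with 75 windows in all. A GC box stood in 53 of these 75 windows (70.7%) and in 35.7% of all 32851 RefSeq promoters of the same length. The median window held 19 CpGs for the guidance genes and 7 for all promoters. On both strands, the letters TGTTTAC (a forkhead motif) were in 0 of the 75 windows and in 3.65% of all promoters, TGGGTGGTC (a GLI motif) in 0 and in 0.253%, and the E-box CACGTG in 5 and in 7.15%. These are matches of letters only, and the windows differ from other promoters in their CpG count, as given.

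After the cell filter, 12623 of 13127 cells were kept, from 1177 in A3 to 2508 in B2. The median count of unique molecular identifiers (UMIs) per cell was 12127, 13586 and 7058 in A1, A2 and A3 and 4175, 4115 and 3548 in B1, B2 and B3. Levels are CPM, that is, the UMIs of a gene summed over the cells of a set and scaled to 1e6 UMIs of that set. The 2 endings also differ in their gene lists: 233 symbols at 5 CPM or more in A had no UMI in B, and 146 the reverse. Sets A3 and B3 had more Pdgfra (939 and 406 CPM) than the other 4 sets (105 to 172 CPM), and all 9 genes of a PDGFRA-high mesenchyme list were higher in them. The epithelium list (8 of 8 genes higher in both) summed to 385 CPM in A3 and 121 in B3 against 43.5 to 55.3 in the other sets. The endothelium list (9 of 9 higher in A3, 8 of 9 in B3) summed to 96.5 and 80.0 CPM against 27.5 to 36.6, and the blood list (6 of 6 in both) to 91.3 and 76.7 against 11.9 to 36.0. Lists for smooth muscle (813 and 460 against 1202 to 1710 CPM), cycling cells (929 and 464 against 1353 to 1946) and enteric neurons (12.2 and 7.60 against 50.4 to 130.4) had lower sums in A3 and B3. So did those for mesenchyme in general (4829 and 3863 against 6900 to 7748 CPM), pericytes (177 and 126 against 196 to 325) and enteric glia (12.3 and 6.37 against 18.6 to 29.7). Not every gene of these lists followed its sum. Of 9 mesenchyme genes, 2 were higher in A3 and 3 in B3, and of 7 smooth muscle genes 2 and 1. Of 6 pericyte genes 2 and 1 were higher, of 6 glia genes 2 and 0, and of 9 cycling genes 0 and 0. The erythroid list stood at 25.2 to 36.3 CPM in ending A and at 1861, 1795 and 3725 CPM in B1, B2 and B3. None of the 8 neuron genes was higher in A3 or B3, and Elavl3 and Tubb3 had no UMI in B3. In all, 22 barcode sequences occurred in more than 1 set. The part of these differences in the results that follow was not tested. Values without such cells are given for some genes.

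The guidance genes together took 0.139% of all UMIs. Of the 68 genes, 42 reached 10 CPM in at least 1 set (22 ligands and 20 receptors), and 22 did so in all 6. Another 17 peaked between 1 and 10 CPM and 7 stayed under 1 CPM. The receptors Robo3 and Epha6 had 0 UMIs in all cells. Since 1 transcript gives 1 tag at its 3′ end, CPM is not divided by gene length.

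**Figure D1:**
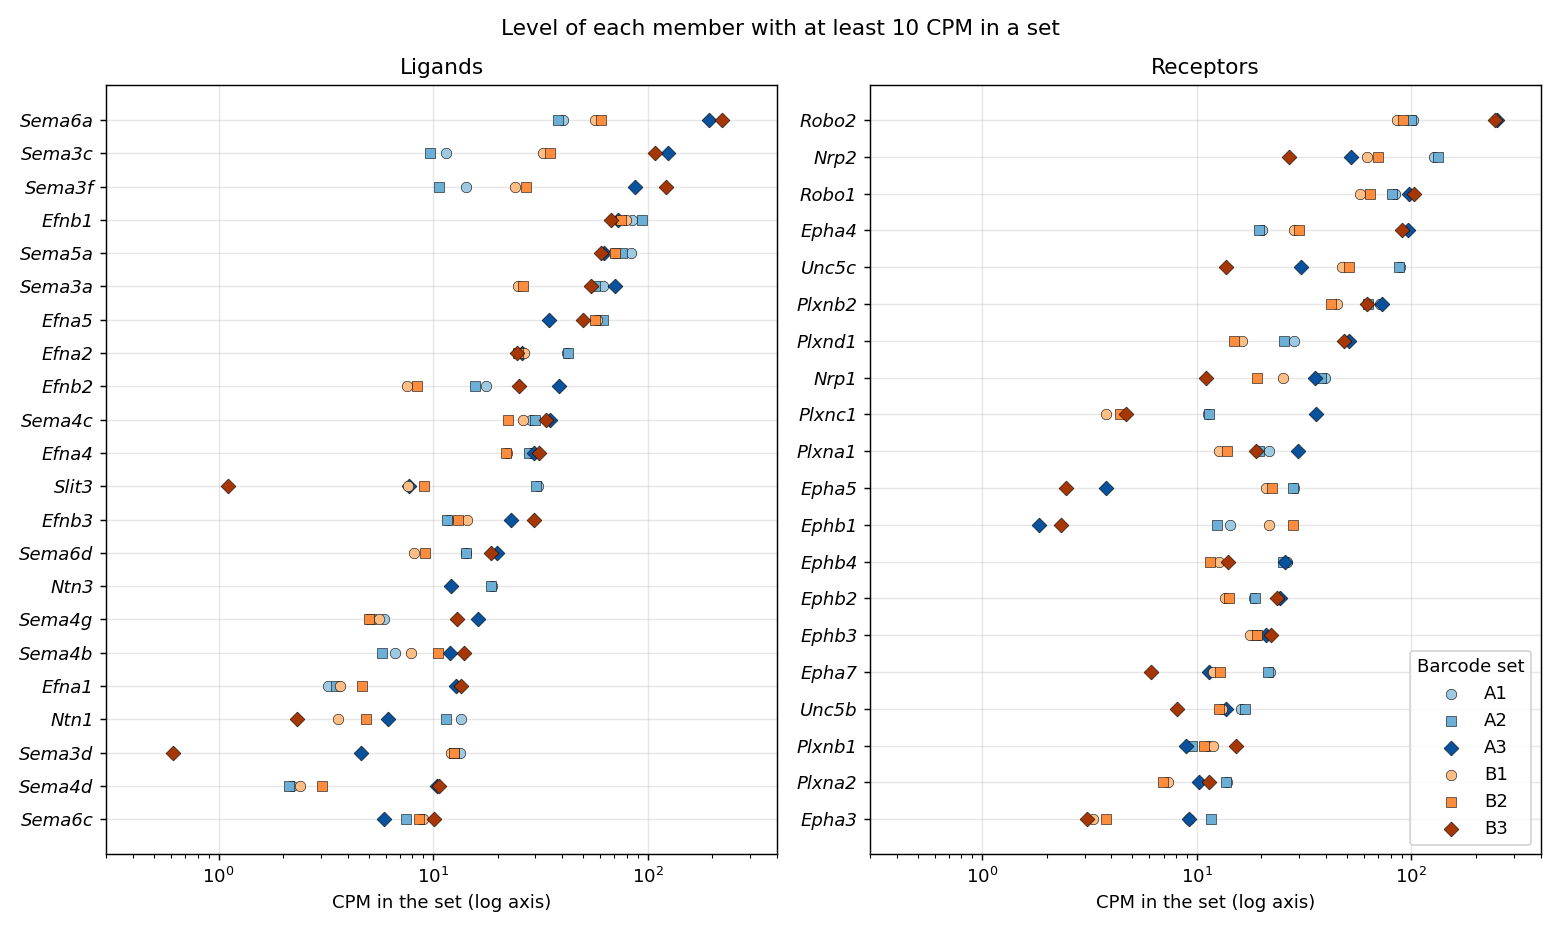
Level (CPM, log axis) of the 22 ligands and 20 receptors with at least 10 CPM in a set, 1 point per barcode set, blue for ending A and orange for ending B, with diamonds for sets A3 and B3. The diamonds lie right of the other points for Sema6a, Sema3c, Sema3f, Robo2 and Epha4, and left of them for Nrp2, Unc5c, Epha5, Ephb1 and Sema3d. Ntn3 had no UMI in ending B and has no points there.

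Set 3 was called past the fold for a gene when its CPM was at least 2-fold above both sets 1 and 2 of the ending, or at most 1/2 of both, with 10 CPM or more in 1 of the 3. In ending A, 10 of 41 guidance genes were higher by this rule (10.4% of all 9648 genes were) and 6 were lower (5.32%). In ending B, 13 of 37 were higher (8.02% of 8741 genes) and 5 lower (5.46%). Of the 36 guidance genes at the minimum in both endings, 9 were higher in both (5.93% of 8425 genes) and 5 were lower in both (3.2%). The higher group held 7 of 18 ligands (Sema3c, Sema3f, Sema4d, Sema4g, Sema6a, Efna1 and Efnb2) and 2 of 18 receptors (Robo2 and Epha4). The lower group held 1 of 18 ligands (Sema3d) and 4 of 18 receptors (Nrp2, Unc5c, Epha5 and Ephb1). The CPM minimum could be met by the high side alone: Sema4d, Sema4g and Efna1 reached 10 CPM only in A3 and B3, and Efnb2 within ending B only in B3, while Sema3d, Epha5 and Ephb1 reached it only in sets 1 and 2. Of the genes called in 1 ending, Sema6d reached 10 CPM within ending B only in B3, and Slit3 within ending A only in A1 and A2. Such genes passed through the side on which they were high, so these counts and the medians over the genes that passed are a description. The median log2 ratio of set 3 to sets 1 and 2 was 0.12 over the guidance genes and -0.03 over all genes in A, and 0.50 and 0.13 in B. Sets 1 and 2 themselves differed by a median of 0.06 (A) and 0.11 (B) on the log2 scale, and by at most 0.41 in either ending (Sema3f in A and Sema4b in B).

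**Figure D2:**
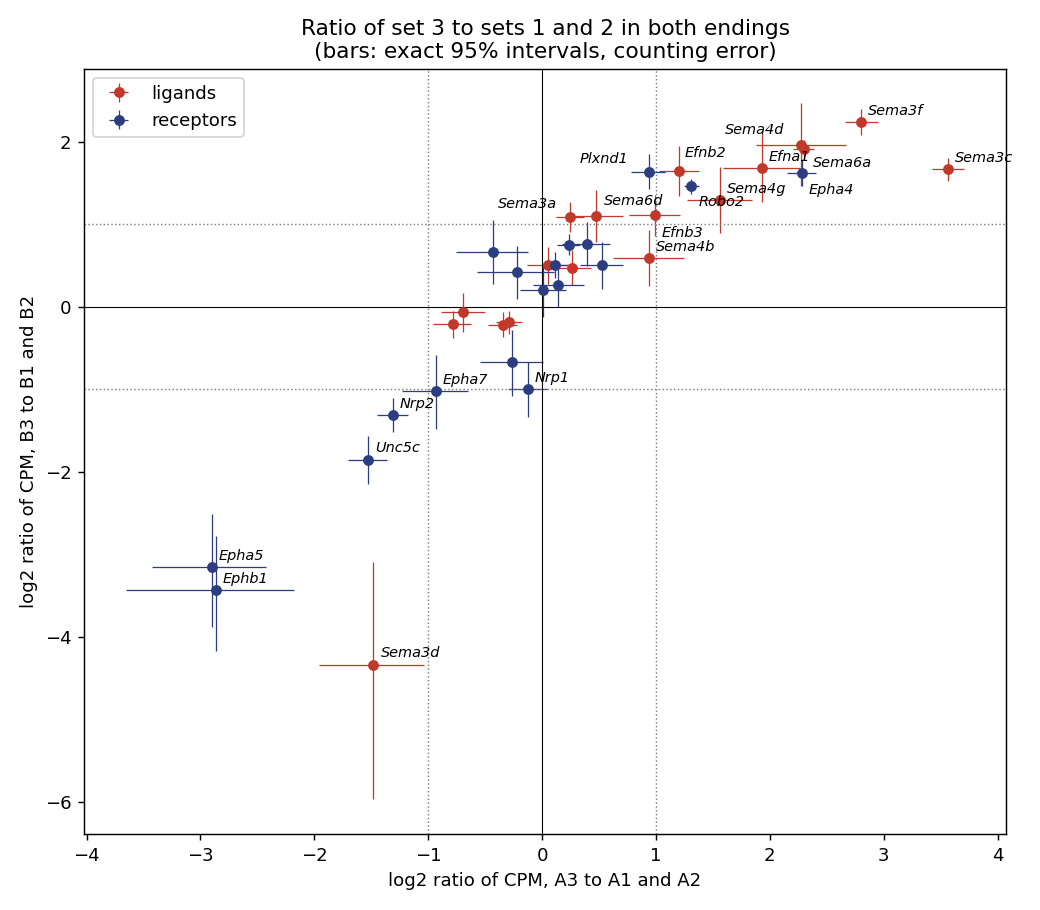
Log2 ratio of CPM in set 3 to sets 1 and 2, ending A across and ending B up, for the 36 guidance genes at 10 CPM in both endings. Bars are exact 95% intervals for counting error, dotted lines mark 2-fold, red points are ligands and blue points receptors. The 9 genes past 2-fold at upper right are mostly red, and 4 of the 5 at lower left are blue.

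Among the semaphorins, 5 of 11 genes were higher in set 3 of both endings (5.93% of all genes were) and 1 was lower (3.2%). Sema3c, a secreted ligand of neuropilins, stood at 11.4, 9.63 and 125 CPM in A1, A2 and A3 and at 32.7, 35.2 and 108 CPM in B1, B2 and B3. Both sets 3 lay far above the other 4, by a log2 ratio of 3.56 (3.42 to 3.71) in A and 1.67 (1.52 to 1.81) in B. The levels in A3 and B3 were close, and the larger ratio in A goes with the lower levels of A1 and A2. Sema3f, another secreted ligand, which prefers neuropilin 2, had 14.2, 10.7 and 87.0 CPM in ending A and 24.2, 27.2 and 122 CPM in B. Its log2 ratio was 2.80 (2.66 to 2.95) in A and 2.24 (2.09 to 2.39) in B. Sema6a, a transmembrane ligand of plexins A2 and A4, was the highest ligand in A3 and B3, with 40.2, 38.1 and 192 CPM in A and 56.7, 60.7 and 221 CPM in B. Its sets 3 were 4.91-fold and 3.77-fold above sets 1 and 2.

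The other 2 semaphorins with this pattern were low. Sema4d, a ligand of plexin B1 that is also known from lymphocytes, had 2.20, 2.12 and 10.4 CPM in A1 to A3 and 2.39, 3.05 and 10.7 CPM in B1 to B3. Sema4g, a transmembrane class 4 semaphorin, had 5.88, 5.11 and 16.3 CPM in A and 5.58, 5.02 and 12.99 CPM in B. Their sets 3 were above the other sets in both endings, by log2 ratios of 2.27 and 1.96 for Sema4d and 1.56 and 1.30 for Sema4g. In A these ran over the alternatives from 1.42 to 2.83 for Sema4d and from 1.31 to 2.23 for Sema4g. Without the cells that held a UMI of the epithelium list, a subset chosen after the data were seen, neither was past the fold in both endings any more. Only 81 cells of A3 then remained.

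Sema3d went the other way. This secreted class 3 ligand had 13.3, 12.6 and 4.63 CPM in A and 12.2, 12.6 and 0.61 CPM in B, the last from 5 UMIs. Its log2 ratio was -1.48 (-1.96 to -1.04) in A and -4.33 (-5.97 to -3.09) in B. Over the alternatives that gave a value, it ran from -3.87 to -1.37 in A and from -6.38 to -4.31 in B, the larger ratios being those of cells with no Mki67 or Top2a UMI. Sema3a, which signals through neuropilin 1, had 62.0, 57.0 and 70.6 CPM in A and 24.8, 26.3 and 54.4 CPM in B. It was past the fold in B only (log2 ratios 0.24 and 1.09), as was Sema6d (0.48 and 1.10). Sema5a, at 60.3 to 83.5 CPM in the 6 sets, differed little between them, with log2 ratios of -0.35 and -0.21. Sema4c ranged from 22.4 to 35.0 CPM, Sema4b from 5.77 to 14.0 CPM and Sema6c from 5.92 to 10.05 CPM, and none of the 3 passed the fold in either ending. Summed over all 20 genes, semaphorins stood at 658 CPM in A3 and 674 in B3, against 278 to 301 CPM in the other 4 sets.

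Ephrins were called by the same rule for 7 genes, and 2 were higher in set 3 of both endings (5.93% of all genes were). Efna1, a ligand held in the membrane by a lipid anchor, had 3.23, 3.51 and 12.8 CPM in A and 3.68, 4.66 and 13.48 CPM in B. Its log2 ratio was 1.93 in A and 1.68 in B. Efnb2, a transmembrane ephrin best known from arterial endothelium, had 17.7, 15.7 and 38.7 CPM in A and 7.57, 8.42 and 25.1 CPM in B, with log2 ratios of 1.21 and 1.65. The endothelium list was also higher in A3 and B3, and its part in the ratios of Efnb2 was not tested. Efnb3, another transmembrane ephrin, stayed just under the fold in A (0.99) and just over it in B (1.11). Efnb1, at 67.5 to 94.5 CPM the highest ephrin, had log2 ratios of -0.29 and -0.18, and the other 3, Efna5 (-0.79 and -0.21), Efna2 (-0.70 and -0.07) and Efna4 (0.05 and 0.50), were also under 2-fold. The 8 ephrins summed to 206 to 262 CPM across the 6 sets, with no gap between sets 3 and the rest.

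Slits and netrins were the scarcest ligands. Slit3 had 30.9, 30.3 and 7.76 CPM in A1 to A3 and was past the fold there, with a log2 ratio of -1.98 (-2.34 to -1.64), which ran from -4.01 to -1.87 over the alternatives. In B it had 7.67, 9.05 and 1.10 CPM, lower again in set 3 but below the 10 CPM minimum. Slit2 reached 8.72 CPM at most and Slit1 0.18 CPM. Ntn1, the founding netrin, had 13.45, 11.47 and 6.14 CPM in A, where its log2 ratio was -1.03 against both sets together and -0.90 against A2 alone, so it missed the fold. In B it had 2.33 to 4.84 CPM. Ntn3 had 18.8, 18.6 and 12.2 CPM in A (1256 UMIs) and 0 UMIs in B, where it is one of the 233 symbols without a count, so no level of Ntn3 in B can be read from these data.

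Of the neuropilins, the receptors of class 3 semaphorins, 1 of 2 was lower in set 3 of both endings (3.2% of all genes were). Nrp2 had 128, 133 and 52.6 CPM in A1, A2 and A3 and 62.4, 70.2 and 26.8 CPM in B1, B2 and B3. The log2 ratio was -1.31 in both endings (-1.45 to -1.18 in A and -1.52 to -1.10 in B), and over the alternatives it ran from -2.24 to -1.20 in A and from -2.08 to -1.22 in B. Nrp1 had 39.7, 37.8 and 35.6 CPM in A and 25.1, 19.1 and 11.03 CPM in B. Its log2 ratios of -0.13 and -0.99 did not pass the fold. The 2 genes together summed to 88.1 CPM in A3 against 167 and 171 in A1 and A2, and to 37.9 CPM in B3 against 87.5 and 89.3.

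No plexin passed the fold in both endings, of 5 at the minimum in both. Plxnd1, a receptor best known from developing vessels, had 28.3, 25.4 and 51.4 CPM in A and 16.2, 14.9 and 48.4 CPM in B. Its log2 ratio was 0.94 in A, under the fold, and 1.64 (1.43 to 1.86) in B. Plxnc1, the receptor of Sema7a, had 11.2, 11.4 and 35.9 CPM in A, a log2 ratio of 1.67 (1.47 to 1.86). In B it had 3.78, 4.39 and 4.66 CPM. Plxnb2, the most abundant plexin, ranged from 42.4 to 73.0 CPM with log2 ratios of 0.12 and 0.50, and Plxna1 from 12.7 to 29.7 CPM with ratios of 0.52 and 0.50. Plxna2 and Plxnb1 had ratios of opposite sign in the endings, -0.43 and 0.67 for Plxna2 and -0.22 and 0.42 for Plxnb1.

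The Slit receptor Robo2 reached the highest level of the guidance genes, in A3. It stood at 102, 99.3 and 250.01 CPM in A and 85.7, 91.1 and 244 CPM in B, so that A3 and B3 were close to each other and above the other 4 sets. The log2 ratio was 1.31 (1.24 to 1.38) in A and 1.46 (1.37 to 1.55) in B. Among cells with no Mki67 or Top2a UMI, the ratio in A was 0.94 and under 2-fold. Robo1, its paralog, had 83.7, 81.7 and 97.3 CPM in A and 57.8, 63.9 and 103 CPM in B, ratios of 0.23 and 0.75 that did not pass. Robo4, an endothelial receptor, reached 3.77 CPM in A3 and 1.47 CPM in B3, against at most 0.42 CPM in the other sets.

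Eph receptors were mixed, with 1 of 7 higher in both endings (5.93% of all genes were) and 2 lower (3.2%). Epha4, which binds ephrins of both classes, had 20.1, 19.5 and 96.3 CPM in A and 28.5, 29.9 and 90.3 CPM in B. Its log2 ratio was 2.28 (2.15 to 2.41) in A and 1.63 (1.47 to 1.78) in B. Epha5, a receptor of class A ephrins, had 28.3, 28.1 and 3.77 CPM in A and 21.1, 22.3 and 2.45 CPM in B. Ephb1, a receptor of class B ephrins, had 14.2, 12.4 and 1.83 CPM in A and 21.7, 28.1 and 2.33 CPM in B. Both were lower in set 3, by log2 ratios of -2.90 and -3.15 for Epha5 and -2.87 and -3.43 for Ephb1. Neuron markers were lower in A3 and B3 as well. A subset of cells without any UMI of the neuron and glia lists was chosen after the data were seen. Its ratios were -3.34 and -3.16 for Epha5 and -2.96 and -3.46 for Ephb1. It kept 1034 of 2461 cells in A1, 771 of 2085 in A2 and 978 of 1177 in A3. In B1, B2 and B3 it kept 1217 of 2211, 1396 of 2508 and 2079 of 2181. The part of neurons in the ratios of these 2 genes was not tested. Over all alternatives that gave a value, Epha5 in A ran from -4.11 in cells with no Mki67 or Top2a UMI to -1.94 in cells with no epithelium UMI, and Ephb1 ran from -3.64 to -2.76 in A and from -4.42 to -3.22 in B.

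Epha7 came close to the fold in both endings (-0.93 and -1.02), with 22.1, 21.6 and 11.4 CPM in A and 11.95, 12.8 and 6.13 CPM in B. Ephb2 (0.39 and 0.76), Ephb3 (0.14 and 0.27) and Ephb4 (0.01 and 0.21) stayed well under it, at 11.6 to 26.3 CPM. Epha3 reached 11.6 CPM in A2 and 3.06 to 3.76 CPM in ending B.

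Of the Unc5 receptors, which bind netrins, Unc5c had 88.3, 87.8 and 30.5 CPM in A and 47.5, 51.3 and 13.7 CPM in B. It was lower in both sets 3, with log2 ratios of -1.53 (-1.71 to -1.36) and -1.85 (-2.14 to -1.57). Unc5b had 8.09 to 16.8 CPM with ratios of -0.26 and -0.67, and Unc5a and Unc5d stayed at or under 2.62 CPM.

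The genes below 10 CPM in every set are named for completeness. Besides Slit2, Robo4 and Unc5a, they include Plxna3 (at most 6.47 CPM), Sema4a (4.85), Plxna4 (4.33), Efna3 (4.30), Ephb6 (4.24), Sema3b (3.88), Epha2 (3.45), Sema4f (2.33), Sema3e (2.06), Sema5b (1.69), Sema7a (1.51), Sema3g (1.29), Epha1 (1.18) and Sema6b (1.10). Ntn5, Epha8, Unc5d, Plxnb3, Slit1, Ntn4 and Epha10 stayed under 1 CPM. A count of 0 in B3, the set with the fewest UMIs, allows a level of up to 0.368 CPM. No fold was read for these genes.

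Since cells differed in depth between sets, the share of cells with a UMI was taken after drawing 2000 UMIs from each of 12582 cells (41 shallower cells were left out, 1 to 13 per set). Robo2 was then seen in 19.5%, 19.5% and 40.4% of cells in A1, A2 and A3 and in 15.7%, 16.1% and 35.1% in B1, B2 and B3. At full depth the shares were 63.6%, 65.9% and 75.2% in A and 29.4%, 30.0% and 53.3% in B. The drawn shares come from the same UMIs as the CPM and largely follow from it, so they are not a separate result. Whether more cells made the gene or each made more cannot be read from them.

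For Sema6a the drawn shares were 9.23%, 6.38% and 33.2% in A and 10.05%, 11.3% and 36.1% in B (35.6%, 35.3%, 69.2%, 20.0%, 21.1% and 53.6% at full depth). Sema3c was in 2.89%, 2.35% and 18.8% of cells in A and 6.28%, 6.65% and 17.2% in B (10.04%, 8.97%, 43.0%, 11.4%, 11.7% and 26.8% at full depth). Epha4 was in 3.62%, 3.65% and 16.01% in A and 5.32%, 5.48% and 14.6% in B (18.8%, 17.4%, 41.2%, 10.4%, 10.6% and 23.5% at full depth). In each of these 3 genes, the shares of A3 and B3 lay above those of all other sets.

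Nrp2 was in 20.4%, 20.2% and 6.56% of the drawn cells in A and in 9.46%, 10.9% and 3.83% in B (63.1%, 67.7%, 20.0%, 20.9%, 21.9% and 6.83% at full depth). Unc5c was in 16.2%, 15.0% and 4.17% in A and in 8.42%, 9.69% and 2.40% in B (57.7%, 59.3%, 14.4%, 17.3%, 18.7% and 4.49% at full depth). Sema3d was in 2.85%, 2.83% and 0.511% in A and in 2.00%, 2.40% and 0.0461% in B (10.5%, 11.03%, 2.12%, 4.61%, 4.71% and 0.229% at full depth). These 3 genes were in a smaller share of the cells of A3 than of A1 and A2, and of B3 than of B1 and B2. No cell type was separated here, so the share that free RNA gives in cells without the gene was not measured.

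**Figure D3:**
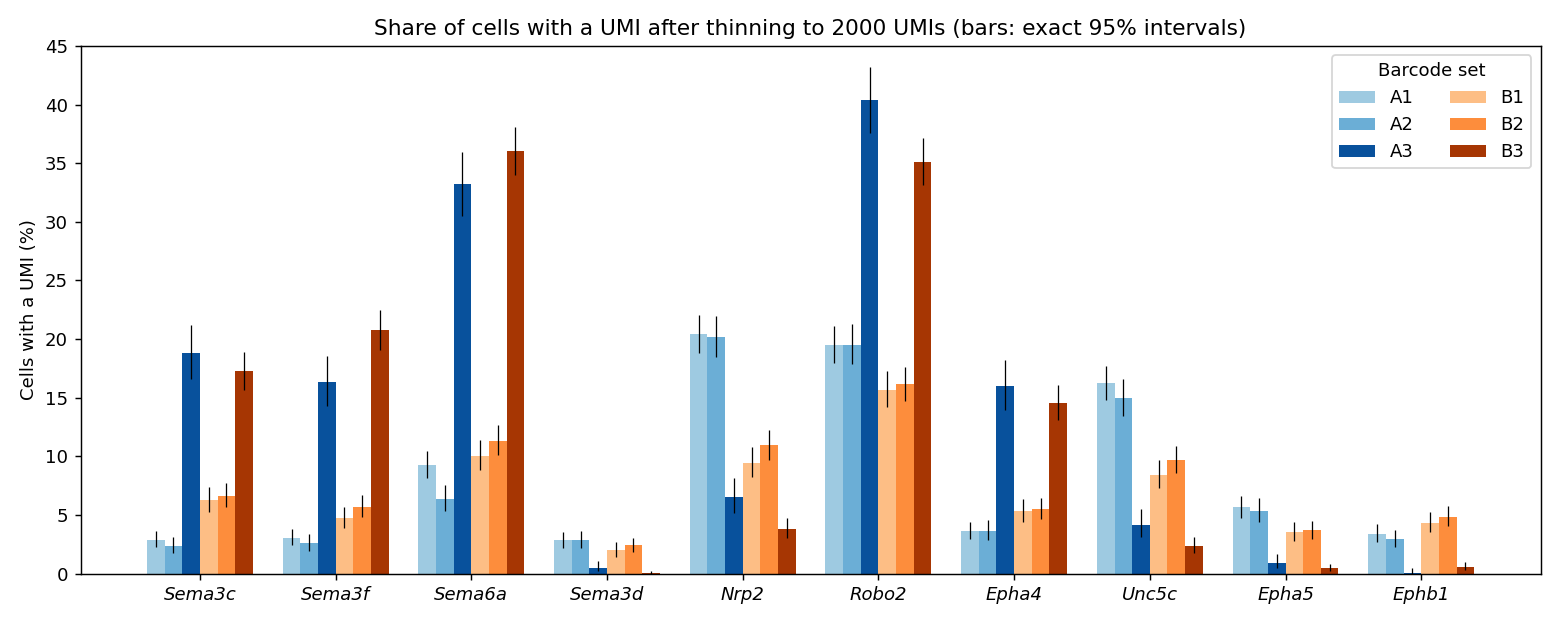
Share of cells (%) with at least 1 UMI of 10 guidance genes after 2000 UMIs were drawn from each cell, by barcode set. Bars are shares and lines exact 95% intervals for counting error. Robo2 reached 40.4% in A3 and 35.1% in B3, while Nrp2 was in 20.4% of cells in A1 and 3.83% in B3.

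The level of each gene was then set against Pdgfra within the sets. Cells were split by their Pdgfra UMIs among the 2000 drawn, into 0, 1, 2 and 3 or more. In sets 1 and 2, cells with 3 or more were rare (47 in A1 and A2 together, 50 in B1 and B2), while A3 had 394 and B3 149. The share of cells with a Mki67 or Top2a UMI at full depth was lower in cells with 3 or more than in cells with none, at 36.2% against 70.1% in A1 and A2, 31.7% against 53.2% in A3, 12% against 41.8% in B1 and B2, and 11.4% against 15.1% in B3. The median UMI count per cell was also lower, for example 8534 against 12955 in A1 and A2.

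Over all 6 sets, combined as a Mantel-Haenszel ratio, 1 of 39 guidance genes (Sema4d) was at least 2-fold higher in cells with 3 or more Pdgfra UMIs, with its direction in at least 5 sets (1.87% of 9504 genes), and 3 were lower (Epha5, Ephb1 and Slit3; 3.21%). A second random draw of UMIs gave 5 lower, and 0 were higher with Pdgfra UMIs as deposited, with 2 or more Pdgfra UMIs or without cycling cells, cells of other lineages or cells with a neuron or glia UMI. Shares over all genes are not given for these alternatives. Without the requirement on sets, 2 were higher, the other being Plxnc1 (2.5% of all genes), and the same 3 were lower (3.5%). Sema4d had a log2 ratio of 1.20 (0.58 to 1.82) in which A3 gave 38 UMIs from cells with 3 or more and no other set over 6. The ratio was 0.48 among cells with no Mki67 or Top2a UMI. Ephb1 had -2.74 (-4.50 to -0.99), Epha5 -1.95 (-3.02 to -0.89) and Slit3 -1.67 (-2.39 to -0.94), each lower in 6 of 6 sets. A set with 0 UMIs of the gene in its few cells with 3 or more counts as lower here. From A1, A2, A3, B1, B2 and B3, those cells gave 1, 0, 3, 0, 0 and 0 UMIs of Ephb1. They gave 1, 0, 10, 1, 0 and 0 of Epha5 and 5, 3, 8, 0, 0 and 0 of Slit3. With 2 or more Pdgfra UMIs in place of 3, Ephb1 alone stayed past the fold, at -1.16, beside -0.92 for Epha5 and -0.80 for Slit3.

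Sets 1 and 2 and sets 3 were also taken apart, since their levels of Pdgfra differed. Within sets 1 and 2 alone, 4 of 41 guidance genes were higher with Pdgfra (Sema3c, Sema3f, Sema6a and Robo2; 4.34% of 9310 genes) and 4 were lower (Epha5, Ephb1, Slit3 and Unc5b; 2.9%). Within sets 3 alone, 0 of 33 were higher (2% of 9357 genes) and 2 were lower (Nrp2 and Unc5c; 3.28%). The difference between these 2 comparisons was not tested. The call of Unc5b rests on few UMIs: cells with 3 or more Pdgfra UMIs gave 1, 0, 1 and 1 in A1, A2, B1 and B2. Its log2 ratio was -1.82 (-3.45 to -0.18) over these sets, but -0.16 in B1 and -0.13 in B2 alone. In sets 3 Unc5b had 0.54 (-0.07 to 1.15).

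Sema3c stood at 9.72, 9.68, 19.6 and 77.9 CPM in cells of A1 and A2 with 0, 1, 2 and 3 or more Pdgfra UMIs, and at 28.7, 47.2, 109 and 120 CPM in B1 and B2. In A3 it stood at 105, 104, 137 and 154 CPM and in B3 at 102, 116, 107 and 115 CPM. In sets 3 the gene was therefore already high in cells in which no Pdgfra UMI was drawn. The log2 ratio of 3 or more to none was 2.60 (2.22 to 2.99) in sets 1 and 2 and 0.47 (0.27 to 0.66) in sets 3. Cells with no drawn Pdgfra UMI still had Pdgfra at full depth, at 388 CPM in A3 and 145 CPM in B3 against 114 CPM in A1 and A2 and 42.9 CPM in B1 and B2.

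For other genes that were high in sets 3, the 2 ratios differed from gene to gene. The log2 ratio in sets 1 and 2 and in sets 3 was 2.33 (1.90 to 2.75) and 0.83 (0.61 to 1.05) for Sema3f, and 1.92 (1.63 to 2.21) and 0.66 (0.51 to 0.80) for Sema6a. For Epha4 it was 1.67 (1.22 to 2.11) and 0.14 (-0.07 to 0.36), though Epha4 was not higher in B1. For Robo2 it was 1.11 (0.86 to 1.35) and 0.28 (0.14 to 0.42). Efna1 had 1.86 (0.84 to 2.88) and -0.21 (-0.77 to 0.35), and Sema4d 2.27 (1.17 to 3.37) and 0.99 (0.27 to 1.70). Efnb2 had the same ratio of 0.86 in both, Sema4g had 0.75 (-0.41 to 1.91) and 0.49 (-0.09 to 1.08), and Plxnd1, which was past the fold in B3 alone, had the reverse order, -0.80 (-1.74 to 0.15) and 0.52 (0.22 to 0.82). In the combined ratio of sets 3, A3 had the larger weight. Its cells with 3 or more held 2725777 UMIs of all genes, against 529117 in B3. Taken apart, A3 and B3 had 0.38 and -0.0007 for Robo2, 0.76 and -0.67 for Sema4g and 1.28 and 0.30 for Sema4d. Sema6a (0.66 in each) and Plxnd1 (0.52 in each) were alike. In sets 1 and 2 these genes rest on few UMIs in cells with 3 or more. The most were 11 to 73 per set for Robo2 and 12 to 45 for Sema6a, beside 8 to 19 for Sema3f. In A1, A2, B1 and B2 there were only 4, 2, 0 and 1 for Sema4d and 4, 2, 0 and 2 for Efna1. Sema4g had 2, 3, 0 and 1, Plxnd1 4, 2, 3 and 0, and Efnb2 9, 6, 0 and 2.

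The 4 receptors that were low in sets 3 had ratios of unlike order, on very few UMIs for Epha5 and Ephb1. Nrp2 stood at 128, 132, 167 and 133 CPM in A1 and A2 in the order of Pdgfra UMIs, and at 68.5, 61.1, 33.9 and 35.9 CPM in B1 and B2. In A3 it stood at 67.8, 73.6, 41.7 and 27.5 CPM and in B3 at 39.2, 17.6, 15.48 and 5.67 CPM. Its log2 ratio was -0.05 (-0.39 to 0.28) in sets 1 and 2 and -1.47 (-1.86 to -1.08) in sets 3. For Unc5c the ratios were -0.41 (-0.86 to 0.05) and -1.26 (-1.74 to -0.78). Epha5 and Ephb1 had the larger ratio in sets 1 and 2, at -3.23 (-5.23 to -1.23) against -0.65 (-1.87 to 0.56) for Epha5 and -3.52 (-6.36 to -0.69) against -1.74 (-3.82 to 0.34) for Ephb1. Cells with 3 or more Pdgfra UMIs in A1, A2, B1 and B2 gave 1, 0, 1 and 0 UMIs of Epha5. For Ephb1 they gave 1, 0, 0 and 0. The intervals of the 2 ratios overlap for both genes, so their order cannot be read.

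**Figure D4:**
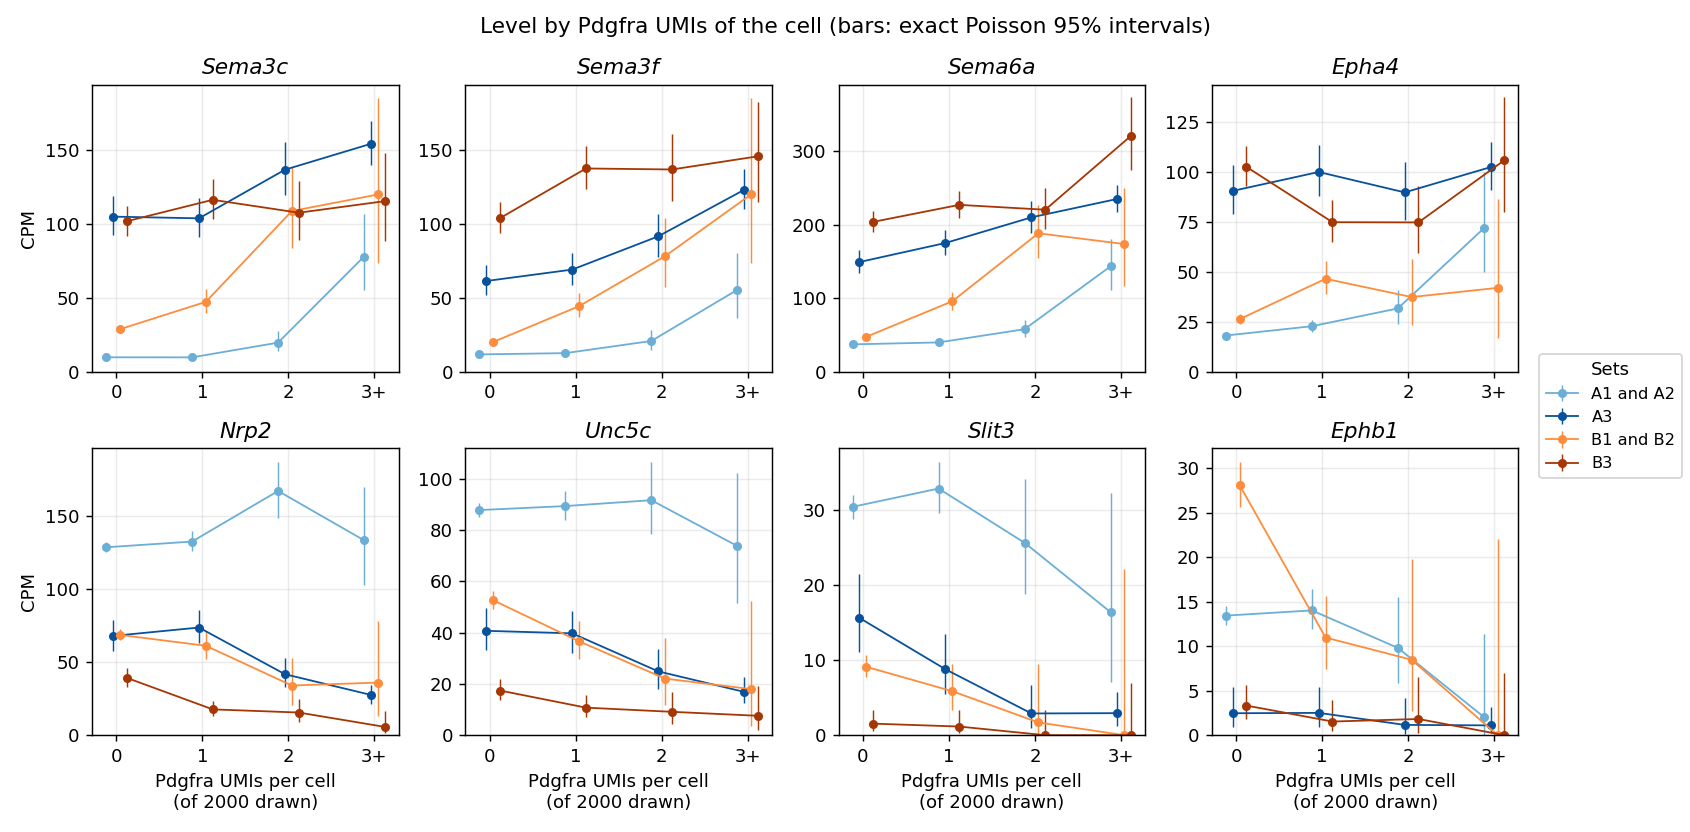
Level (CPM) of 8 guidance genes by the number of Pdgfra UMIs among 2000 drawn per cell, with 1 line per group of sets and exact Poisson 95% intervals as bars. Sema3c in A1 and A2 goes from 9.72 to 77.9 CPM, while in B3 it stays between 102 and 116 CPM. Nrp2 in B3 goes from 39.2 to 5.67 CPM.

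Ligands and their receptors were also looked for in the same cell. The list also held pairs of co-receptors, such as Nrp1 with Plxna1. Of 51 listed pairs, 17 had each gene in at least 5% of the drawn cells of a set. That set could differ between the 2 genes. Both were found together in at most 1.96% of the cells of a set (Efnb1 with Epha4), so the counts are small. For Sema3c and Nrp2, the cells with both numbered 10, 4 and 3 in A1, A2 and A3 and 8, 10 and 11 in B1, B2 and B3. These were 0.690, 0.404, 0.207, 0.613, 0.551 and 0.769 of the number that the product of the 2 shares gives. All 6 lay below 1. Sema3f with Nrp2 had ratios from 0.508 to 1.01 on 5 to 11 cells, and Efnb1 with Epha4 had ratios from 0.951 to 1.14 on 13 to 39 cells. Slit3 with Robo2 had 32, 33 and 7 cells in A1, A2 and A3, ratios of 1.14, 1.34 and 1.58. In ending B it had 3 cells in B1 and 6 in B2, ratios of 0.683 and 0.907, and 0 cells in B3, which allows up to 0.138% of its cells. In counts this sparse the ratios are a description only.

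Guidance genes that are neighbours in the genome (GRCm38) are given beside each other. Efna1, Efna3 and Efna4 lie in a row on chromosome 3, at chr3:89271730-89280951, chr3:89313899-89322939 and chr3:89333393-89338028, with gaps of 32.9 and 10.5 kb. Efna1 was past the fold in both endings, Efna4 had log2 ratios of 0.05 and 0.50, and Efna3 stayed at or under 4.30 CPM. Sema3d and Sema3a lie 536 kb apart on chromosome 5 with no protein-coding start between them, and in B their log2 ratios were -4.33 and 1.09. Robo1 and Robo2 are 844 kb apart on chromosome 16, and Sema3b, at or under 3.88 CPM, lies 72.3 kb from Sema3f on chromosome 9.

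Other genes of the pathway were taken from lists of receptors and ligands outside these families and of intracellular partners. Of 6 other receptors and ligands at the minimum in both endings, 0 were past the fold upward (5.93% of all genes were) and 3 downward (3.2%): Rgma, a ligand of neogenin, Flrt2, a ligand of Unc5 receptors, and Cxcl12, a chemokine. Among genes of this list at the minimum in at least 1 ending, the largest ratios were 3.75 for Met in A, with 1.23, 1.15 and 16.1 CPM, and -2.25 for Flrt2 in B, with 22.5, 18.6 and 4.29 CPM. Met reached the minimum only in A3, the set in which it was high, and stayed at or under 3.43 CPM in B. Met, the receptor of hepatocyte growth factor, is also made by epithelium, whose list was higher in A3. The part of epithelial cells in the ratio of Met was not tested. Of 32 intracellular partners, 2 were higher in both endings and 1 was lower, shares close to the 5.93% and 3.2% over all genes. Mical2, an actin-oxidising enzyme of the family that plexins signal through, had 5.08, 3.69 and 57.2 CPM in A and 14.1, 16.9 and 73.4 CPM in B, log2 ratios of 3.70 and 2.24. Ablim3, an actin-binding LIM protein, had ratios of 3.75 and 1.96. Srgap3, which belongs to the proteins that link Robo receptors to small GTPases, had 18.4, 19.1 and 4.85 CPM in A and 15.3, 14.7 and 3.92 CPM in B, ratios of -1.95 and -1.94.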

How the data were processed

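Cells were captured with the 10x Chromium 3′ kit (v3) after MULTI-seq labelling, and live cells were sorted as negative for DAPI and Ter119, per the labels' protocols. Cell Ranger 2.1.1, Seurat and mm10 are named in the submitters' processing notes, and what each was used for is not stated. The authors deposited raw UMI counts per gene and cell in 1 matrix for all samples, as whole numbers, per the file headers. How the authors filtered cells and whether they removed doublets is not given in the sources used here.

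Cells with under 1000 genes (108 cells) or over 5% mitochondrial UMIs (367 cells) were left out. Scrublet in scanpy 1.11.5, run per set at an expected rate of 5%, called 65 doublets, which were removed. At 0.495% of cells the caller cannot be taken to have worked, so doublets may remain. UMIs were summed per set and divided by its total to give CPM. Ratios carry exact conditional binomial intervals, levels exact Poisson, shares exact Clopper-Pearson and combined ratios Mantel-Haenszel normal intervals, computed with scipy 1.17.1 and all at 95%. The limit for a count of 0 was 3 counts. Thinning drew 2000 UMIs per cell without replacement. No count model was fitted because the matrix has no replicates. The ratios were checked on simulated data.

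Genes were named with values at 10 CPM or more in a set, and otherwise in lists. Of the other pathway genes, those past the fold and the largest ratios are named. The genes, lists and comparisons were chosen with earlier results of these data known. Alternatives were other cell filters, CPM minimums, scalings, folds, thinning depths, Pdgfra thresholds and subsets of cells and sets.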

Additional observations from a re-analysis of the deposited data

Results flagged for a closer look

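Plxna2 and Plxnb1 were singled out because their ratios of set 3 to sets 1 and 2 had opposite signs in the 2 endings. For Plxna2 the log2 ratio was -0.43 (-0.75 to -0.12) in ending A and 0.67 (0.28 to 1.05) in ending B, a difference of 1.10. For Plxnb1 it was -0.22 (-0.57 to 0.11) in A and 0.42 (0.10 to 0.74) in B, a difference of 0.648. The interval of Plxnb1 in A includes equal levels, so no direction can be read there. These differences were not tested, the endings are not groups that the labels name, and the intervals cover counting error only.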

How the results depend on the processing

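No paired analysis was possible because the matrix does not tie cells to samples, so the numbered lanes cannot be matched. Under the alternatives that gave a value, no gene past the fold changed sign in its ratio of set 3 to sets 1 and 2. By Pdgfra UMIs as deposited, the log2 ratio changed sign for Plxnc1 (-0.47), which had been past 2-fold but in too few sets to be counted. It also did for Robo2 (from 0.43 to -0.21) and Nrp2 (from -0.72 to 0.23), among others. These 2 are among the genes counted by Pdgfra within sets 1 and 2 (Robo2) and within sets 3 (Nrp2). With a minimum of 20 CPM, 3 genes were lower in both endings. Without a minimum, 12 were lower in A and 9 in B, and at 1.5-fold 11 and 8. By Pdgfra UMIs, where the reported counts are 1 higher and 3 lower, 2 were higher with 3000 UMIs drawn, 0 with Pdgfra UMIs as deposited, 0 higher and 1 lower with 2 or more UMIs, 8 and 7 when UMIs were summed over all sets, 4 higher without sets 3, 0 without cells with a Mki67 or Top2a UMI, 0 without cells with 3 or more UMIs of other lineages, 5 lower with a second random draw, and 6 and 7 at 1.5-fold. In alternatives chosen after seeing the data, 2 were higher with no requirement on the sets. Without cells with a neuron or glia UMI, 0 were higher and 7 lower. Except with no requirement on the sets and without sets 3, the share over all genes under these alternative rules is not given. Those counts show only how the calls move with the settings. Of the 14 genes past the fold in both endings, Robo2 was lost among cells with no Mki67 or Top2a UMI, Sema4d without cells of other lineages, Sema4d and Sema4g without cells with an epithelium UMI (also chosen after seeing the data), and Efna1, Ephb1, Sema3d, Sema4d and Sema4g at 20 CPM. Setting the median ratio of genes at 50 CPM or more to 0, a log2 shift of -0.11 in A, lost none and added Efnb3. Shares of cells moved with the depth drawn, as the full-depth values show. Few UMIs in cells with 3 or more Pdgfra UMIs of sets 1 and 2 limit the comparison by Pdgfra.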
